A study of Mus musculus with 12 samples.

Results

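Amot, Yap1, the TEAD genes Tead1, Tead2 and Tead4, and the CCN genes Ccn1 and Ccn2 were followed across mouse embryonic stem cells exposed to hydrogen peroxide. These 7 genes of the Hippo pathway, of 8252 named genes on the array, were read by 12 of its 12488 probe sets, groups of short oligonucleotides designed from transcript sequences. They were chosen from earlier results of the same arrays, so their differences are described here. Their calls in the fit over all probe sets are counted but not read as support. Of the 12 probe sets, 11 were above the filter on low signals and every gene had at least 1 of these. The exception was a probe set of Tead1.

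All cells were clone C2, a single clone of the E14tg2a embryonic stem cell line with targeted recognition sites for the endonuclease I-SceI, a genotype that controls and treated cells share. The control group was kept in PBS without peroxide (n = 3). The low dose was 100 µM H2O2 in PBS for 15 min (n = 4) and the high dose 5 mM H2O2 in PBS for 30 min (n = 5), both followed by 1 h of recovery in medium. Concentration and exposure time changed together, so their effects cannot be told apart. The labels leave unclear how long the controls stayed in PBS and whether they also went back to medium, so in comparisons with them peroxide and the change of medium cannot be told apart. The labels do not say whether replicates were separate cultures, so a p-value here reflects only how far these samples spread, which may be technical.

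The Hippo pathway is a kinase cascade that controls the coactivators YAP and TAZ. When the kinases LATS1 and LATS2 phosphorylate YAP, 14-3-3 proteins hold it in the cytoplasm; unphosphorylated YAP enters the nucleus and binds TEAD proteins, which carry it to DNA. Angiomotin, the product of Amot, is an actin- and junction-associated protein that binds YAP and supports its phosphorylation. Ccn1 (also Cyr61) and Ccn2 (also Ctgf) encode secreted matricellular proteins and are the most widely used transcriptional readouts of YAP and TEAD. In the early mouse embryo, Tead4 and Yap1 act in setting the trophectoderm apart from the inner cell mass, from which embryonic stem cells are derived.

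The promoters of 4 of the 7 genes were in the RefSeq table of GRCm38.p6, and 3 are shown because they lie before a CCN target, the coactivator and the member with the largest differences. Each line gives the 250 bases before the annotated start on the gene's own strand, 5′ to 3′. Capitals mark a match to the TEAD motif GGAATG on either strand (CATTCC when read from the other). The stretches are chr3:145649986-145650235 for Ccn1, chr9:8004597-8004846 for Yap1 and chrX:145487640-145487889 for Amot, all on the minus strand.
Ccn1: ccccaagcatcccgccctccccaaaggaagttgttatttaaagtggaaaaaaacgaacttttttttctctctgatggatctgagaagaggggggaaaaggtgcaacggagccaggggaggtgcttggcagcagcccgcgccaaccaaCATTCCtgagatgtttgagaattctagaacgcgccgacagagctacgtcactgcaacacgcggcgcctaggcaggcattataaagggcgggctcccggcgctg
Yap1: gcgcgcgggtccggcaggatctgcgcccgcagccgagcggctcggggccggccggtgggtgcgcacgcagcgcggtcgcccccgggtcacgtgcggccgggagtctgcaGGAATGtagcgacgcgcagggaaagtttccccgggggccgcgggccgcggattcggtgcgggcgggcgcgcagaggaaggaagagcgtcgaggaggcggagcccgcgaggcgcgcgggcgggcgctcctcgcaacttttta
Amot: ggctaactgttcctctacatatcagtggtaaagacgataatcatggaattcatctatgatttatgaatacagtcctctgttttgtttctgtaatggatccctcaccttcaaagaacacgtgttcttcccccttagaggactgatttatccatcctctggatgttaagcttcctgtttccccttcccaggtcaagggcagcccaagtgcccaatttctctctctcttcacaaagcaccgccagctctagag

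Ccn1 held CATTCC from 103 to 98 bases before the start, and a TATAAA from 25 to 20 bases before it. Yap1 held GGAATG from 141 to 136 bases before its start. The TEAD motif was found in 12.6% of 32851 promoters of this length, and TATAAA, searched on the sense strand only, in 7.59%. No match to the AP-1 motif TGANTCA (6.75% of promoters, both strands) or the CArG box (1.47%, both strands) was found in the Ccn1, Yap1, Amot or Tead2 stretches. Those of Amot and Tead2 (chr7:45215542-45215791, plus strand) also had no TEAD or TATAAA match. A match describes the letters of the window only.

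Values are MAS5 signals, intensities that the authors' software computed per probe set, and signals of different probe sets cannot be set against each other. Log2 differences were taken after adding 10.1 to each signal. Correlations of log2 signals ran from 0.958 to 0.978 between arrays of the same group and from 0.921 to 0.957 between groups. Control replicate 1 had a 3′ to 5′ signal ratio for Actb of 1.99, against 0.871 and 0.921 on the other controls and 1.05 to 1.49 on the treated arrays. Its ratio for Gapdh, 0.779, lay between the 0.588 and 0.831 of the other controls. The highest member signal was 1406. The brightest probe set of an array read 7206 to 8904 in controls, 14980 to 24230 at the low dose and 19730 to 34680 at the high dose. Controls and treated arrays thus did not overlap in this top signal, and its cause was not tested. Of 16 pluripotency markers 15 had a probe set, and all of these were above the filter. Summed, they read 30310 to 33670 in controls, 36570 to 42560 at the low dose and 34290 to 39430 at the high dose. Single markers went both ways. At an adjusted p of 0.05 against control, 5 were higher and 3 lower at the low dose, beside 11.9% and 12.7% of all genes. At the high dose 2 were higher and 1 lower, beside 5.36% and 6.84%. Trophectoderm markers summed to 1169 to 1505, 1204 to 1388 and 887 to 1447, with Cdx2 and Elf5 below 10.1 in each group mean. Others were bright: Krt8 averaged 432, 376 and 134, and Tfap2c 345, 452 and 550.1, in controls, low and high dose. Of 8 tested, 1 was higher and 2 were lower than in controls at each dose. Fibroblast markers summed to 1365 to 1643, 1640 to 2077 and 1361 to 1806, and 7 of the 16 were below the filter, among them Col3a1, Dcn and Twist1. The other 9 were tested, and some were bright, such as Fn1 with means of 551, 889 and 657. Against control 1 was higher and 1 lower at the low dose, and 0 were called at the high dose. In bulk RNA, fewer cells of a type and less RNA per cell cannot be told apart.

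Amot was higher at the low dose and much lower at the high dose than in the controls. Its signals were 216, 240.4 and 205 in the controls, 440.2, 466, 557 and 468 at the low dose, and 34.0, 28.4, 46.1, 31.0 and 38.0 at the high dose. The 3 groups did not overlap: every low-dose array lay above all controls and every high-dose array below them. The group means were 220.3 ± 18.2 (SD, n = 3), 483 ± 50.9 (n = 4) and 35.5 ± 6.93 (n = 5). On the log2 scale Amot was 1.09 ± 0.17 (SE) higher at the low dose than in controls, or 2.14-fold, and its high-dose level was lower by a difference of -2.35 ± 0.16, or 5.09-fold. Between the doses the difference was -3.44 ± 0.15, or 10.9-fold. Among 8695 probe sets tested, ordered from the most negative difference, Amot was 14th in high dose against control and 10th in high against low dose. In low dose against control it was 301st from the top. Leaving out any 1 array kept the high-dose difference from control between -2.43 and -2.29. It depended more on the offset, with -2.65 under a floor in its place and -1.79 with 4 times the offset. Between the doses these settings gave -3.78 and -2.79.

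**Figure D1:**
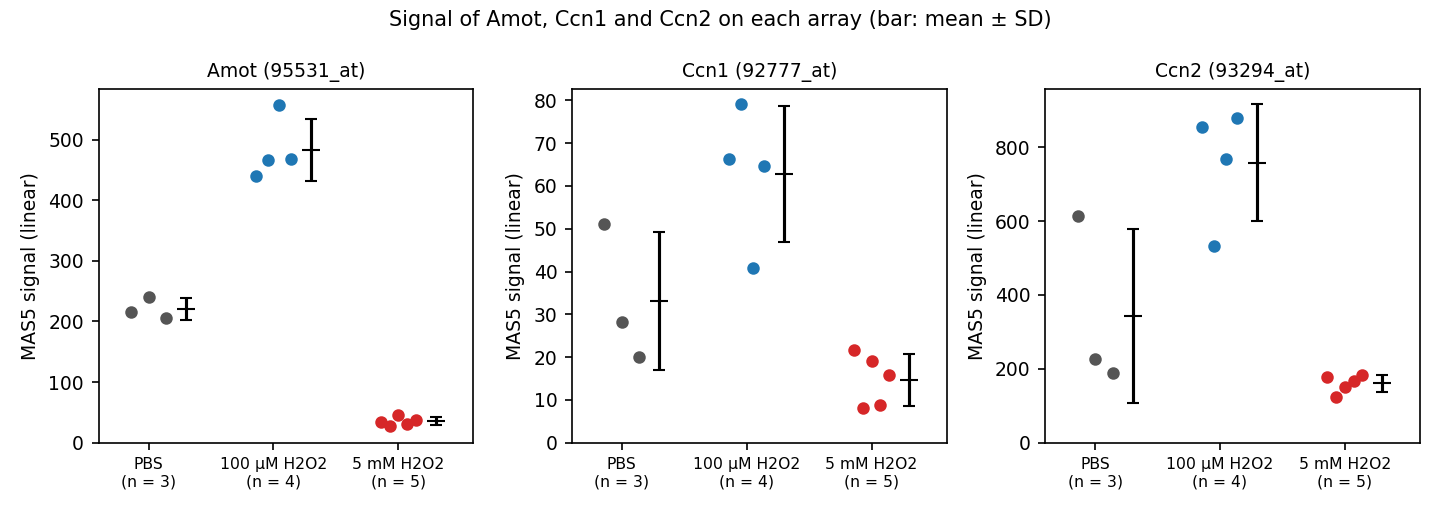
MAS5 signal (linear axis from 0) of the probe sets of Amot, Ccn1 and Ccn2 by group; coloured points are the 12 arrays, and black marks beside them are group means with SD. Amot separates all 3 groups, with 28.4 to 46.1 at the high dose and 440.2 to 557 at the low dose, while both Ccn genes are lower at the high dose than at the low dose on every array.

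Ccn2, which encodes connective tissue growth factor, was higher at the low dose by its group mean and lowest at the high dose. The controls read 613, 226 and 190.1, the low-dose arrays 855, 532, 767 and 880.1, and the high-dose arrays 177, 124, 152, 167 and 183. Control replicate 1 stood apart at 613, above low-dose replicate 2, so controls and low dose overlapped. All high-dose arrays were below all others, though only just below the lowest control. Means were 343 ± 235 (SD, n = 3), 759 ± 158 (n = 4) and 160.3 ± 23.5 (n = 5). The log2 difference was 1.29 ± 0.30 (SE) for low dose against control (2.45-fold), -0.87 ± 0.28 for high dose against control (1.83-fold lower) and -2.16 ± 0.26 between the doses (4.47-fold lower). Without control replicate 1, these became 1.80 for low dose against control and -0.36 for high dose against control. Without control replicate 3, the latter was -1.18.

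Ccn1, its paralogue and an immediate-early gene in many cells, was dimmer. The controls read 51.2, 28.3 and 20, the low dose 66.3, 79.1, 40.9 and 64.7, and the high dose 21.7, 8.16, 19.1, 8.78 and 15.8. Control replicate 1 was again the highest control and lay within the low-dose range, and the lowest control lay within the high-dose range. The doses themselves did not overlap. Means were 33.2 ± 16.2 (SD, n = 3), 62.7 ± 15.9 (n = 4) and 14.7 ± 6.09 (n = 5). Log2 differences were 0.79 ± 0.32 (SE) for low dose against control (1.72-fold), -0.78 ± 0.30 for high dose against control (1.71-fold lower) and -1.56 ± 0.28 between the doses (2.95-fold lower). Leaving out 1 array moved the difference of high dose from control to between -1.01 (without control replicate 3) and -0.49 (without control replicate 1). With the signals this near the offset, the difference between the doses ran from -2.06 with a floor in place of the offset to -0.90 with 4 times the offset. Control replicate 1 stood apart in its Actb 3′ to 5′ ratio but not in that of Gapdh; the part of RNA quality in its Ccn1 and Ccn2 signals was not tested.

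Yap1, the coactivator, had smaller log2 differences than Amot and the Ccn genes, and its brighter probe set had its lowest mean at the high dose. Its brighter probe set, 160520_at, read 1129, 928 and 927 in the controls, 975, 1406, 1070 and 1106 at the low dose, and 694, 975, 771, 808 and 773 at the high dose. The groups overlapped in every comparison, with 1 high-dose array at the level of the lowest low-dose array. Means were 995 ± 117 (SD, n = 3), 1139 ± 186 (n = 4) and 804 ± 104 (n = 5). The log2 differences were 0.19 ± 0.15 (SE) for low dose against control, -0.31 ± 0.14 for high dose against control and -0.49 ± 0.13 between the doses, or 1.41-fold lower. Under median scaling the first of these was -0.00. The other Yap1 probe set, 161308_f_at, carries the suffix that Affymetrix gives to sets shared by a sequence family. It read 5.97 to 56.1 over all arrays with group means of 23.8 ± 15.4, 42.8 ± 8.96 and 35.0 ± 18.5, and the groups overlapped throughout.

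**Figure D2:**
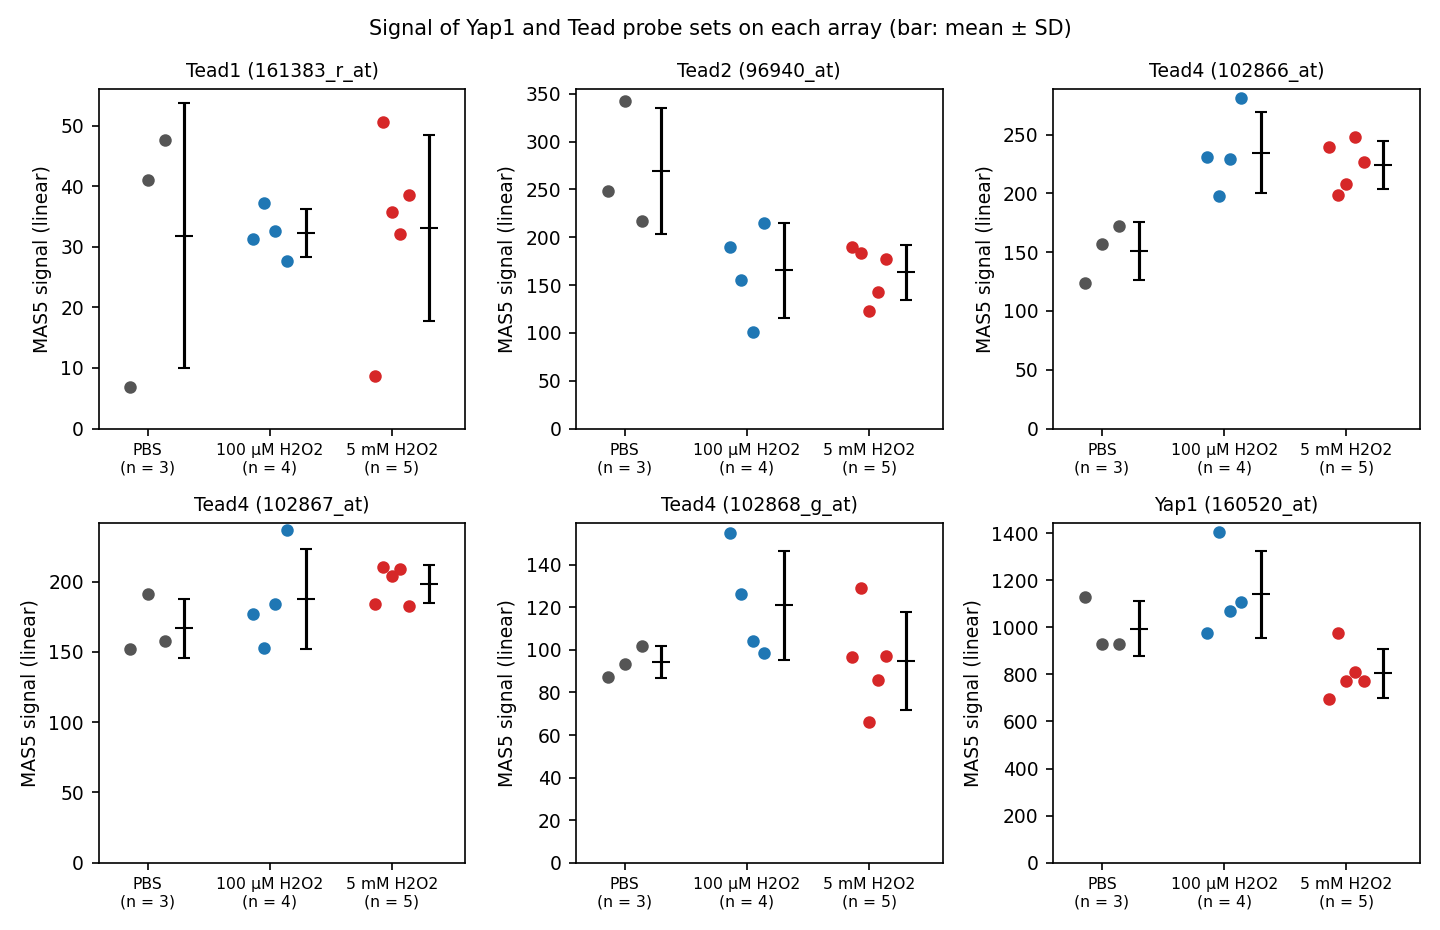
MAS5 signal (linear axis from 0) of 6 probe sets of Yap1, Tead1, Tead2 and Tead4 by group; coloured points are the 12 arrays, and black marks beside them are group means with SD. Tead2 is lower and Tead4 probe set 102866_at higher at both doses than on the control arrays, and the Yap1 groups overlap.

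The TEAD genes, which encode the DNA-binding partners of YAP, differed among themselves. Tead2 read 248, 343 and 217 in the controls, 190.3, 155, 101 and 215 at the low dose, and 189.7, 184, 123, 143 and 177 at the high dose. All controls lay above all treated arrays, by only 2 signal units at the closest point, and the doses overlapped. Means were 269.5 ± 65.6 (SD, n = 3), 165 ± 49.5 (n = 4) and 163 ± 28.8 (n = 5). The difference from control was -0.70 ± 0.23 (SE, log2) for the low and -0.68 ± 0.22 for the high dose, and the doses differed by 0.02 ± 0.21. Leaving out control replicate 2 moved the low-dose difference to -0.52, and leaving out low-dose replicate 3 moved it to -0.49.

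Tead4, which acts in trophectoderm specification, was higher at both doses on its probe set 102866_at. The controls read 124, 157 and 172, the low-dose arrays 231, 198, 229 and 281, and the high-dose arrays 239.7, 199, 208, 248 and 227. Every treated array exceeded every control, and the doses overlapped. Means were 151 ± 24.6 (SD, n = 3), 235 ± 34.4 (n = 4) and 224 ± 21.0 (n = 5), which gave log2 differences of 0.60 ± 0.16 (SE) at the low and 0.55 ± 0.15 at the high dose. The other 3 Tead4 probe sets did not separate the groups. Probe set 102867_at differed from control by 0.15 ± 0.16 and 0.24 ± 0.15 at the low and the high dose, 102868_g_at by 0.31 ± 0.22 and -0.02 ± 0.21, and 161179_at, with signals from 8.84 to 56.1, by -0.19 ± 0.41 and 0.03 ± 0.39.

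Tead1 was near the low end of the array. Probe set 161383_r_at, whose suffix marks relaxed rules of probe choice, read 6.88 to 47.6 in controls, 27.7 to 37.3 at the low dose and 8.69 to 50.6 at the high dose. The means of 31.8 ± 21.9, 32.2 ± 3.97 and 33.2 ± 15.3 (SD, n = 3, 4 and 5) lay within the spread of the arrays. The probe set below the filter, 104233_at, read 2.22 to 14.5, 3.99 to 20.3 and 3.4 to 31.9.

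**Figure D3:**
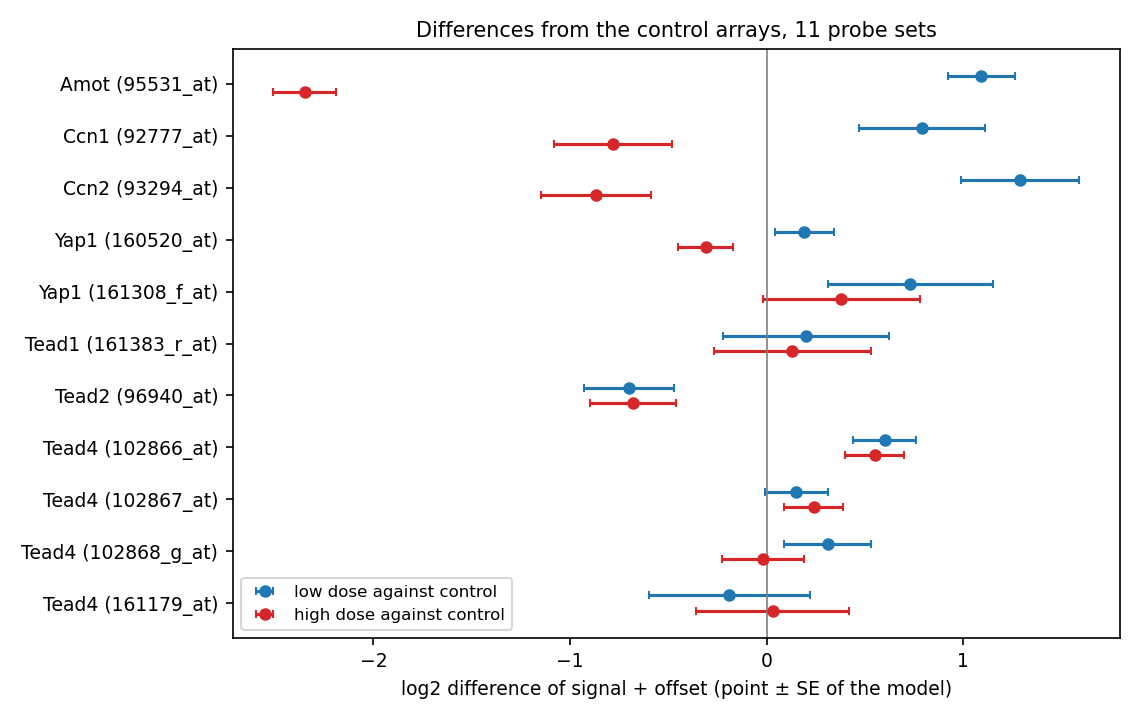
Log2 differences of signal plus offset from the controls for the 11 member probe sets above the filter; blue points are the low dose, red points the high dose, and bars are 1 SE of the model. Amot and the Ccn genes lie on opposite sides of 0 at the low and the high dose, whereas Tead2 and Tead4 102866_at keep their side.

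Counts of members past the limma threshold (Benjamini-Hochberg adjusted p of 0.05 over all probe sets) stand beside the same counts over all genes, and nothing is read from them. In high dose against control, 1 of the 7 genes was called higher (Tead4) and 1 lower (Amot), or 2 of 11 probe sets; of all 6414 genes tested 5.36% were higher and 6.84% lower, and 11.7% of probe sets were called. In low dose against control, 3 genes were called higher (Amot, Ccn2 and Tead4) and 1 lower (Tead2), or 4 of 11 probe sets, beside 11.9% of genes higher, 12.7% lower and 24.0% of probe sets called. In high against low dose, 0 were higher and 4 lower (Amot, Ccn1, Ccn2 and Yap1), or 4 of 11 probe sets, beside 13.8%, 15.2% and 27.4%. The call of Tead4 at the high dose was lost without control replicate 1 or 2 and without high-dose replicate 1, 4 or 5, with differences from 0.42 to 0.58, and under median scaling (0.48). That of Tead4 at the low dose was lost without control replicate 1 (0.48) and under median scaling (0.42). The low-dose call of Tead2 was lost without a filter, without the variance trend and in the fit of the 2 groups alone (-0.70 in each), and without control replicate 1 (-0.74) or 2 or low-dose replicate 2 (-0.68) or 3. The call of Yap1 between the doses was lost under median scaling (-0.38), and Ccn1 was not tested with the filter at the 50th percentile. Of differences not called, the fits without 1 array called Ccn2 at the high dose (-1.18 without control replicate 3), Tead2 at the high dose (-0.68 without low-dose replicate 3) and Ccn1 at the low dose (1.07 without control replicate 1). Tead2 at the high dose was also called under median scaling (-0.75) and in the fit of the 2 groups alone (-0.68).

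The genes most like each member were named by Pearson's r of log2 signals over the 12 arrays, which fall into 3 groups, so r mostly follows the group means. For Amot these were P4ha2 (r = 0.985), which encodes a collagen prolyl hydroxylase, Pdgfra (0.982) and Gata6 (0.982). Pdgfra, a growth factor receptor, and Gata6, a transcription factor, both mark primitive endoderm, the lineage that lines the early inner cell mass. Pdgfra signals averaged 252 in the controls, 569 in the low-dose group and 27.6 in the high-dose group, and Gata6 signals 182, 635 and 23.6. For Ccn1 they were Dusp16 (0.941), F2r (0.934), which encodes the thrombin receptor, and Racgap1 (0.925); F2r averaged 1175, 2172 and 632. For Ccn2 they were Arhgap21 (0.953), Rab2a (0.953) and Atf6 (0.945). For Yap1 they were Usf2 (0.933), Hnrnpu (0.932) and Macf1 (0.931). Tead2 was followed most closely by Pigs (0.915), Zfp598 (0.911) and Prelid1 (0.887), and Tead1 by Sh3rf1 (0.856), Abcc1 (0.828) and Cybb (0.825). For Tead4 they were Fos (0.919), Jak3 (0.914) and Trim47 (0.911). Fos, an immediate-early transcription factor, rose by 3.14 ± 0.26 (log2, SE; adjusted p = 2.78e-06) at the low dose and by 2.51 ± 0.25 (adjusted p = 6.22e-06) at the high dose.

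Because Pdgfra and Gata6 appeared beside Amot, the level of all 17 measured primitive endoderm markers of a list of 19 was set beside it. Their summed signal was 9798, 6846 and 7111 in the controls, 10400, 10430, 9959 and 10760 at the low dose, and 1681, 1815, 1689, 1883 and 1817 at the high dose. Of 16 tested, 11 fell at the high dose and 6 rose at the low dose, and 0 passed the test in the other direction. Over all genes 6.84% were called lower at the high dose and 11.9% higher at the low dose. Pdgfra and Gata6, which led to this list through these same arrays, are among the 16. The counts are therefore a description and no independent support for the Amot pattern. Some that did not pass read lower at the low dose than in controls, such as Lrp2, an endocytic receptor, at -0.45 ± 0.21. The median log2 differences were -1.92 and 0.30, against -0.01 and 0.04 over all genes. Dab2, an endocytic adaptor, fell by 4.0 at the high dose (adjusted p = 2.42e-08), and Foxa2, a forkhead factor of endoderm, rose by 2.62 at the low dose (adjusted p = 0.00011). Control replicate 1 had a marker sum near the low-dose arrays, while its Amot signal of 216 lay between those of the other controls. The sum mostly follows the brightest markers: over the controls Col4a1 read 1516 to 2542 and Lama1 1206 to 2356. Gata6 read 141 to 211 and Pdgfra 238 to 267 there, so the sum does not give a share of primitive endoderm cells. The part of primitive endoderm cells in the Amot differences was not tested.

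**Figure D4:**
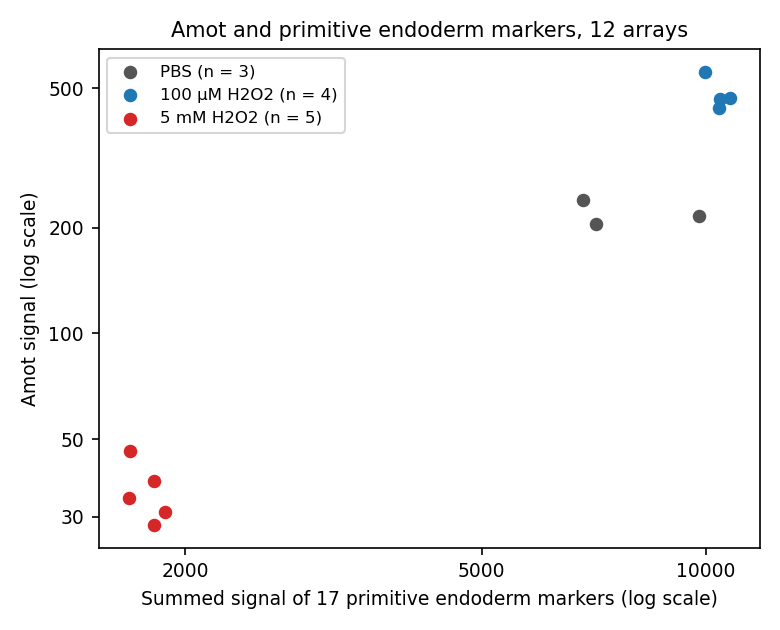
Amot signal (log axis) against the summed signal of 17 primitive endoderm markers (log axis), 1 point per array, coloured by group. The 5 high-dose arrays are low on both axes (marker sums 1681 to 1883), and control replicate 1 has a marker sum of 9798 with an Amot signal of 216. The sum mostly follows the brightest markers.

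Among the angiomotin relatives and junction and polarity regulators, 13 of 22 genes had a probe set and 12 were tested. Amotl1 had no probe set. Amotl2, an Amot paralogue and itself a YAP target in many cells, averaged 303 ± 69.7 (SD, n = 3) in controls, 775 ± 164 (n = 4) in the low-dose group and 213 ± 34.4 (n = 5) in the high-dose group. It rose by 1.33 ± 0.19 (log2, SE; adjusted p = 0.000245) at the low dose, was lower at the high than at the low dose by a difference of -1.80 ± 0.17 (adjusted p = 1.45e-06), and did not pass in high dose against control (-0.48 ± 0.19, adjusted p = 0.109). Unlike Amot, whose high-dose arrays lay far below the controls, Amotl2 passed only in the comparisons with the low-dose group. In this list 3 genes rose and 0 fell at the low dose (median 0.28). Apart from Amotl2 these were Frmd6, a FERM-domain protein upstream of the kinases (0.75 ± 0.24, adjusted p = 0.0304), and Cdh1, which encodes E-cadherin (0.55 ± 0.17, adjusted p = 0.0253). Over all genes 11.9% were called higher and 12.7% lower there. The shares were 5.36% and 6.84% in high dose against control, and 13.8% and 15.2% between the doses. In high dose against control 0 of 12 passed limma's test and 2 had an unadjusted p below 0.05 (median 0.06); the largest differences were Prkci, an atypical protein kinase C, at 0.62 ± 0.43 and Pard3, a polarity scaffold, at 0.51 ± 0.18. The Prkci difference rested on control replicate 1 and was -0.27 without it, 1.09 without control replicate 2 and 1.05 without control replicate 3; Pard3 passed without high-dose replicate 4 (0.62, adjusted p = 0.0353). Between the doses 3 were lower at the high dose (median -0.02): Amotl2, Frmd6 (-1.13 ± 0.21, adjusted p = 0.000833) and Ptpn14, a phosphatase that binds YAP (-0.76 ± 0.20, adjusted p = 0.00986). At the low dose the call of Frmd6 was lost without control replicate 2 or 3 or low-dose replicate 2 or 3 (0.57 to 0.76), and that of Cdh1 without control replicate 1 or 2 or low-dose replicate 3 (0.50 to 0.54). Under median scaling both were lost (0.58 and 0.37), and under quantile normalization and without a filter Frmd6 was lost (0.60 and 0.75). Cdh1 passed between the doses without high-dose replicate 5 (-0.40, adjusted p = 0.0484).

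The kinase cascade was listed together with genes that act beside it, among them 14-3-3 proteins, casein kinases and phosphatase subunits. Of these 30 genes, 23 had a probe set and were tested, and Lats1, Stk3, Stk4 and Sav1 had none. Counts over this list are therefore not counts of upstream kinases alone. At the high dose 3 rose and 2 fell against control (median -0.12), at the low dose 3 rose and 3 fell (0.15), and between the doses 4 were higher and 5 lower at the high dose (-0.14). Over all genes the shares called were 5.36% higher and 6.84% lower, 11.9% and 12.7%, and 13.8% and 15.2% in the same comparisons. Lats2, a kinase that phosphorylates YAP and a YAP target in its own right, averaged 102 ± 3.09, 177 ± 46.0 and 87.4 ± 28.6 (SD). It rose by 0.71 ± 0.24 at the low dose (adjusted p = 0.0425), and was lower at the high than at the low dose (-0.95 ± 0.21, adjusted p = 0.00331). Its low-dose call was lost without any 1 of the controls, low-dose replicates 1, 3 and 4, or high-dose replicate 1 (0.59 to 0.73), under median scaling (0.53) and quantile normalization (0.59), and without a filter or the variance trend. Wwc2, a scaffold of the LATS kinases, averaged 125 ± 13.5, 184 ± 10.1 and 57.2 ± 9.83, the same order of groups as Amot. It fell at the high dose (-1.01 ± 0.17, adjusted p = 0.00111), rose at the low dose (0.53 ± 0.18, adjusted p = 0.0393), and differed between the doses by -1.54 ± 0.16 (adjusted p = 3.0e-06). The low-dose call of Wwc2 was lost under 12 of 21 alternatives. These were leaving out any 1 control or low-dose array (0.44 to 0.58), median scaling (0.35), quantile normalization (0.43), a floor in place of the offset (0.56), no filter, and the replicate number as a block (0.50). Its relative Wwc1 (also Kibra) fell at the low dose instead (-1.14 ± 0.24, adjusted p = 0.00284) and was higher at the high than at the low dose (0.76 ± 0.21, adjusted p = 0.0117). Stk38, a kinase related to LATS, fell at both doses (-0.91 ± 0.18, adjusted p = 0.00364 at the high dose; -0.59 ± 0.19, adjusted p = 0.0292 at the low dose). The latter call was lost without control replicate 1 or 3 or low-dose replicate 1 or 4 (-0.55 to -0.49).

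The remaining calls of the cascade list were single genes. At the high dose Map4k4, a kinase upstream of LATS, rose by 0.62 ± 0.16 (adjusted p = 0.0197), but its other probe set differed by 0.06, and the call was lost without control replicate 2 (0.46) or 3 (0.56) and under median scaling (0.55). Also higher there were Ywhaq (0.52 ± 0.16, adjusted p = 0.0417) and Csnk1d (0.44, adjusted p = 0.0414), a 14-3-3 protein and a casein kinase. The call of Ywhaq was lost without control replicate 2 or 3, low-dose replicate 1 or high-dose replicates 1 to 4 in turn (0.39 to 0.54) and under quantile normalization (0.17) and median scaling (0.45), and another of its 3 probe sets rose at the low dose instead (1.42 ± 0.30, adjusted p = 0.00313). That of Csnk1d was lost without control replicate 1 or 3, low-dose replicate 2, or high-dose replicate 1, 2, 3 or 5 (0.35 to 0.45) and under median scaling (0.37). At the low dose Ywhag, another 14-3-3 gene, rose by 0.66 ± 0.15 (adjusted p = 0.00531, lost under median scaling at 0.47) and Csnk1e fell (-0.62, adjusted p = 0.0361), the latter call lost without control replicate 2 or 3 or low-dose replicate 2, 3 or 4 (-0.60 to -0.42). Between the doses Map4k4 (0.47 ± 0.15), Csnk1d (0.52 ± 0.12) and Csnk1e (0.50) were higher at the high dose, with adjusted p of 0.0237, 0.00495 and 0.047. The other 3 probe sets of Csnk1d read lower at the high than at the low dose without passing (-0.20, -0.33 and -0.40) and did not pass at the high dose against control. Between the doses the call of Map4k4 was lost without low-dose replicate 2 or 4 or high-dose replicate 1 or 3 (0.42 to 0.46). That of Csnk1e was lost without control replicate 2, low-dose replicates 2 to 4 or high-dose replicate 1, 2, 3 or 5 (0.45 to 0.55). Mob1b (-0.79 ± 0.21), Mob1a (-0.39 ± 0.13), which encode LATS cofactors, and Ppp2ca, a phosphatase catalytic subunit (-0.69 ± 0.18), were lower, with adjusted p of 0.00995, 0.0346 and 0.00947; Mob1a is named to complete the count, after its values were seen. Nf2, which encodes the scaffold merlin, passed in none: its differences were -0.21, 0.04 and -0.26 in high dose against control, low dose against control and high against low dose.

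Of the coactivator and TEAD partners, 5 of 10 genes had a probe set and 3 were tested. Against control 1 rose at each dose, and 1 was lower at the high than at the low dose. Over all genes 5.36% were called higher at the high dose, 11.9% higher at the low dose and 15.2% lower between the doses. Wwtr1, which encodes TAZ, the paralogue of YAP, did not pass on its brightest probe set, with differences of -0.14 ± 0.32 at the high dose, 0.56 ± 0.33 at the low dose and -0.70 ± 0.29 between the doses. Without low-dose replicate 2 it passed at the low dose (0.87, adjusted p = 0.043) and between the doses (-1.01, adjusted p = 0.0095). Its other probe set fell at the high dose (-0.62, adjusted p = 0.0317) and was lower there than at the low dose (-0.97, adjusted p = 0.00036). Tfap2c, a transcription factor that acts with TEAD4 in trophectoderm, rose at the high dose (0.62 ± 0.19, adjusted p = 0.0457), a call lost without any 1 control, low-dose replicate 1, 2 or 4, or high-dose replicate 1, 2 or 5 (0.50 to 0.67), and under median scaling (0.54). Rere, a nuclear receptor coregulator, rose at the low dose (0.60 ± 0.17, adjusted p = 0.0187, lost without control replicate 3 at 0.37 and under median scaling at 0.41) and was lower at the high than at the low dose (-0.93 ± 0.15, adjusted p = 0.000252). Without control replicate 3 it also passed at the high dose against control (-0.56, adjusted p = 0.0364). Tead3, the TEAD gene not among the 7, averaged 5.52 ± 2.05, 8.73 ± 1.49 and 6.68 ± 2.34 (SD) and was below the filter.

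Among 34 other genes known as YAP and TEAD targets, 24 had a probe set and 15 were tested. At the high dose 0 rose and 1 fell against control (median -0.24), at the low dose 4 rose and 4 fell (0.25), and between the doses 2 were higher and 6 lower at the high dose (-0.39). Over all genes the shares called higher and lower were 5.36% and 6.84%, 11.9% and 12.7%, and 13.8% and 15.2% in the same comparisons. The fall at the high dose was in F3, which encodes tissue factor, the initiator of coagulation, and averaged 219 ± 159, 275 ± 59.1 and 50.3 ± 18.5. Its difference was -1.76 ± 0.33 (adjusted p = 0.00259) from control and -2.27 ± 0.30 (adjusted p = 4.27e-05) from the low dose, and without control replicate 1 it also passed at the low dose (1.04, adjusted p = 0.016). Over the 21 alternatives the high-dose difference from control kept its call but ran from -2.12 to -1.23. At the low dose Amotl2, Lats2, Dock5, a guanine nucleotide exchange factor (0.49 ± 0.13, adjusted p = 0.0151), and Ccnd1, which encodes cyclin D1 (0.43 ± 0.13, adjusted p = 0.0278), rose; Ccnd1 is named to complete the count, after its values were seen. The 4 that fell there were Myc (-1.36 ± 0.23, adjusted p = 0.000625), the DNA damage gene Gadd45a (-0.70 ± 0.15, adjusted p = 0.00317), and the apoptosis inhibitor family genes Birc2 (-0.57 ± 0.16, adjusted p = 0.0163) and Birc5 (-0.54 ± 0.15, adjusted p = 0.0147). Dock5, Ptpn14 and Ccnd1 (-0.75, -0.76 and -0.42) joined Amotl2, Lats2 and F3 as lower at the high than at the low dose, while Myc (0.95 ± 0.20, adjusted p = 0.00205) and Birc5 (0.38, adjusted p = 0.0387) were higher. The other probe set of Ccnd1 rose at both doses (0.68 ± 0.18 at the low, adjusted p = 0.013; 0.58 ± 0.17 at the high, adjusted p = 0.0388) and differed by only -0.10 ± 0.16 between them. Low-dose calls were lost for Dock5 without control replicate 2 (0.48) and under median scaling (0.31), and for Birc2 (-0.46) and Birc5 (-0.41) without control replicate 1. The call of Birc5 between the doses was lost without any 1 low-dose array or high-dose replicate 1, 2, 3 or 5 (0.33 to 0.41). Myc averaged 82.0 in controls, 26.0 in the low-dose group and 60.4 at the high dose, the reverse of the order of Ccn1 and Ccn2 between the doses. The target Ankrd1 was below the filter, with 109.7 on 1 control array and means of 4.3 and 1.72 at the low and the high dose.

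**Figure D5:**
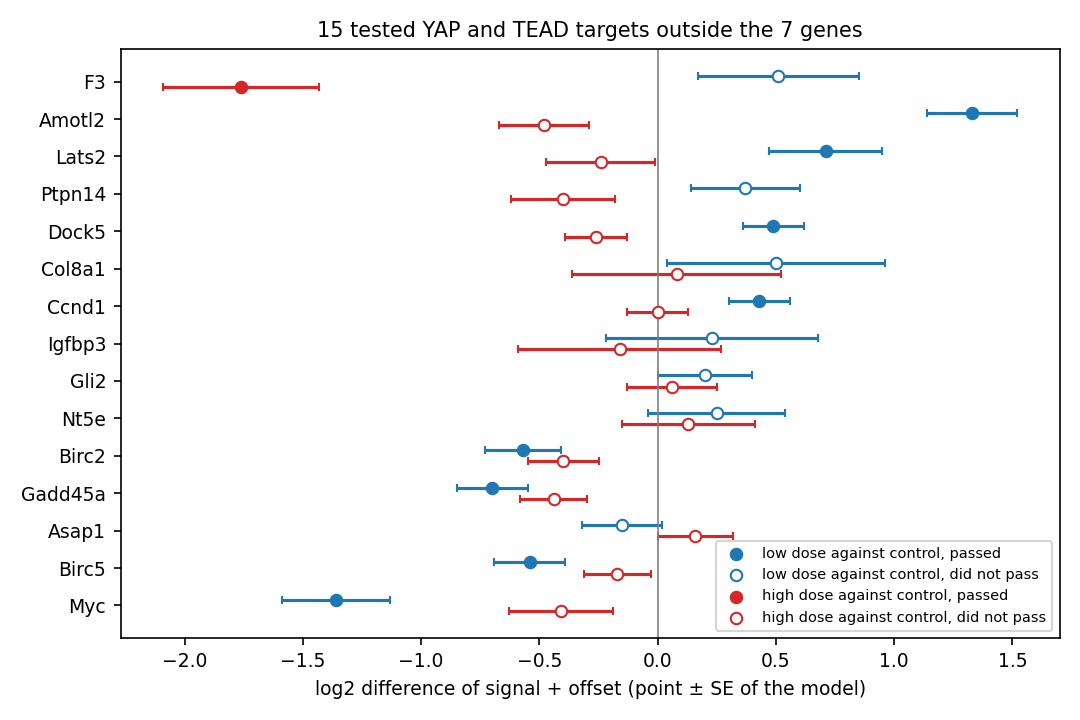
Log2 differences of signal plus offset from the controls for the 15 tested YAP and TEAD targets outside the 7 genes, low dose in blue and high dose in red; bars are 1 SE of the model, and filled points passed the test. Amotl2 (1.33) and Lats2 (0.71) are raised at the low dose with Myc (-1.36) lowest there, and F3 (-1.76) is the lowest at the high dose.

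The other CCN genes gave no test: Ccn3, Ccn4 and Ccn5 had group means of 6.93 to 26.2 and were below the filter. Genes that serum response factor regulates through actin, a set that overlaps the YAP targets of many cells, were also listed, and 12 of 19 were tested. Over all genes 5.36% were called higher and 6.84% lower in high dose against control. The shares were 11.9% and 12.7% in low dose against control, and 13.8% and 15.2% between the doses. At the high dose 0 of 12 passed limma's test (4 with an unadjusted p below 0.05, median -0.00), with Tagln, an actin-binding protein, at -0.78 ± 0.38. That value was -0.18 without control replicate 1, and -1.28 without control replicate 2, where it passed (adjusted p = 0.0484). At the low dose 4 rose and 0 fell (median 0.37). These were Vcl, which encodes the adhesion protein vinculin (0.77 ± 0.15, adjusted p = 0.00205), Tpm2, a tropomyosin (0.91 ± 0.28, adjusted p = 0.0256), Cnn3, a calponin (0.49 ± 0.12, adjusted p = 0.00906), and Pdlim7 (0.59 ± 0.18, adjusted p = 0.0289), which disagreed among its probe sets: of the others above the filter 1 fell (-1.24 ± 0.36, adjusted p = 0.0212) and 1 did not pass (-0.31 ± 0.22). The call of Tpm2 was lost without control replicate 1 or 2 or low-dose replicate 3 (0.65 to 0.92), and that of Pdlim7 without control replicate 2 or 3 or low-dose replicate 1 or 3 (0.53 to 0.59). Under median scaling Cnn3 (0.30, adjusted p = 0.206) and Pdlim7 (0.41, adjusted p = 0.121) did not pass, nor did Tpm2 (0.73) and Pdlim7 (0.49) under quantile normalization. Pdlim7 passed at the high dose without high-dose replicate 3 (0.66, adjusted p = 0.0159). Vcl was lower at the high than at the low dose (-0.87 ± 0.13, adjusted p = 0.000165), the 1 call there.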

How the data were processed

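RNA of 12 samples was read on MG_U74Av2 arrays. The authors deposited a linear intensity for each probe set on each array, a MAS5 signal per the submitters' processing notes, and its scaling was kept. Its version, scaling target and detection calls: not given in the sources used here. Sample titles gave group and replicate. Arrays have no read depth, and their number limits the precision.

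Intensities were put on the log2 scale after adding 10.1, the 20th percentile of all values, which understates changes of dim probe sets. The 66 control probe sets were left out. The 8695 probe sets with a mean above the 30th percentile were fitted with limma 3.58.1 in R 4.3.3 (a mean per group over all 12 arrays, eBayes with a trend, two-sided), with Benjamini-Hochberg adjustment over all of them, with 0.05 as the threshold. The steps were tested on simulated data. Each of 6414 genes was counted by its brightest probe set. Symbols are those of the platform annotation, brought up to date by Entrez number with RefSeq (GRCm38.p6); 10839 of 10855 probe sets with 1 symbol matched.

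The 7 genes and the gene lists were chosen with earlier results of these data known. All member probe sets are named, with up to 6 genes past the threshold per pathway list and comparison, or the 2 with the largest differences where none passed, and Lats1, Lats2, Amotl1, Amotl2, Wwtr1, Tead3, Ankrd1 and Nf2 where measured. Alternatives were quantile normalization, median scaling, 4 times the offset, a floor instead of it, no filter on low signals, one at the 50th percentile, a fit without the variance trend, only the 2 groups compared, each array left out, and the replicate number as a block.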

Additional observations from a re-analysis of the deposited data

Results flagged for a closer look

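Amot was higher than every control on all 4 low-dose arrays and lower than every control on all 5 high-dose arrays. Its log2 difference between the doses was -3.44. The fit over all probe sets included Amot, but its call is not read as support, since Amot was chosen from these arrays. Wwc2 likewise lay on opposite sides of the controls, and its difference between the doses of -1.54 passed limma's test (adjusted p = 3.0e-06). Its low-dose difference from control (0.53) lost its call under 12 of 21 alternatives.

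Of 88 groups of arrays examined, 4 held an array far from the others, and chance alone gives about 1 in 20 groups. Yap1 probe set 161308_f_at read 56.1 on low-dose replicate 1 and 37.3 to 40.1 on the other low-dose arrays. Birc2 read 293 on low-dose replicate 3 and 198 to 207 on the others. Pard3 read 201 on low-dose replicate 1 against 162 to 164, and Tpm2 read 144 on low-dose replicate 3 against 85.3 to 93.0. All 4 were low-dose arrays. The 88 did not take in every group of every named probe set, so this list does not clear the controls. Some genes spread widely within the control group: Ccn2 spanned 190.1 to 613, F3 110.1 to 402 and Prkci 42.6 to 339.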

How the results depend on the processing

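Of 681 member differences recomputed under the alternatives, 671 moved by less than the spread between replicates, 10 moved by more and 0 that had been called turned their sign. Among the 32 named pathway genes, 22 of 43 called differences kept their call under every alternative and 21 lost it under at least 1; 11 of 53 others gained one. Leaving out 1 array gave 493 to 1019 called probe sets in high dose against control (main 1018), with 493 when control replicate 2 was omitted and 602 when control replicate 3 was, and 1 to 3 member probe sets (main 2). In low dose against control it gave 1425 to 2133 and 3 to 4, and between the doses 1992 to 2550. Median scaling turned 1110 higher and 977 lower calls of low dose against control into 574 and 1497, with the median of all tested probe sets going from 0.08 to -0.09. In high dose against control it turned 494 higher and 524 lower calls into 311 and 614, and between the doses 1113 and 1272 into 1412 and 871. Quantile normalization gave 930 higher and 1155 lower in low dose against control. The causes were not tested.

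Same-numbered arrays of different groups had correlations of their deviations from -0.178 to 0.148 over 10 pairs, 2 of them over 0.1. The labels do not say whether the numbers pair the samples, and weak correlations from so few arrays cannot decide it. With the number as a replicate block, 597 probe sets were called in high dose against control, 1852 in low dose against control and 2055 between the doses. Among the 7 genes it called Ccn2 (-0.97) and Tead2 (-0.76) at the high dose and lost Tead4 there (0.47). Signals of Tead1, Ccn1 and Yap1 161308_f_at near the offset limit what their differences can show. The size of the Amot difference of high dose from control also moved with the offset, from -2.65 to -1.79.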
